A study of Mus musculus with 3 samples.

Results

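The 1000 distal accessible regions with the strongest DNase signal were taken from 3 DNase-seq libraries of natural killer cells, the cytotoxic lymphocytes of innate immunity. The peaks of the 3 libraries were merged by an overlap of 1 bp into 99408 regions, of which 35126 were found in all 3. A region was distal where its middle lay more than 2500 bp from every protein-coding start site, which left 18384 shared distal regions. These were ranked by the lowest of their 3 within-library percentiles of peak signal, and the first 1000 are the members described here. The remaining 17384 are called the other shared distal regions. The libraries are 3 biological replicates of 1 group, primary cells from male adult B6CASTF1/J mice (an F1 hybrid strain) of 2 months. The labels give each library a biosample of its own but a single donor entry, so separate animals are not documented, and no sorting gate is named. The spread between libraries may therefore be technical, and read depth is unknown.

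DNase I cuts chromatin where nucleosomes have been displaced, so a peak of cuts marks DNA to which proteins can gain access. Away from start sites such regions are typically enhancers, insulators or start sites of transcripts other than mRNAs. CTCF, a zinc finger protein that anchors chromatin loops, binds a long motif and leaves a well-marked footprint, a short stretch protected from DNase inside the open region. RUNX, T-box and ETS factors act at enhancers of lymphocytes, SP and KLF factors bind GC-rich elements, and RNA polymerase III reads tRNA genes through internal boxes.

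The highest regions that hold a CTCF motif are shown first. With 1 mismatch allowed for CTCF alone, it was the most frequent of the motifs searched, but not with an exact match. All sequences are 150 bp around the middle of the strongest peak, read from GRCm38 (RefSeq, the assembly also called mm10), and here the capitals mark the 12 bases of the CTCF match, with the strand chosen so that the motif reads forward.
Rank 13, intergenic, 9260 bp from Trpv4, chr5:114667606-114667755, minus strand: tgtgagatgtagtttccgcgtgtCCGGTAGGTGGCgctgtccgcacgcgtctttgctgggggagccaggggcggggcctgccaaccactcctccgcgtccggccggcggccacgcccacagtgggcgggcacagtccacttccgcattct
Rank 22, at the start of the pseudogene 2610005L07Rik, chr8:20424756-20424905, minus strand: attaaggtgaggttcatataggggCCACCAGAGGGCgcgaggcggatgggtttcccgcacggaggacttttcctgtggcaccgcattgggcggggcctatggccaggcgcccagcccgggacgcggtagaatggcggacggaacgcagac
Rank 23, intron of Ccnd3, chr17:47511236-47511385, plus strand: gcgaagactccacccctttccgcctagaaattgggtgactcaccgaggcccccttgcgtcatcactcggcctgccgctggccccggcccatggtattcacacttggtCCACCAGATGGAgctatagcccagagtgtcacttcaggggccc
Rank 24, intergenic, nearest to Chd2, chr7:73618456-73618605, minus strand: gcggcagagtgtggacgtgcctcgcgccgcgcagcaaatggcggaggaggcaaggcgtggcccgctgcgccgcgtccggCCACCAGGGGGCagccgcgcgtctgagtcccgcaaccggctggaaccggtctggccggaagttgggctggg
The motif stood in GC-rich surroundings in all 4, with 61.5 to 75% G and C over the 200 bp window.

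The highest regions with no CTCF motif are shown next, and capitals mark matches, on either strand, to those of the other motifs searched that have at least 7 fixed letters. Rank 2 lies in an untranslated exon of Lars2 and is not printed.
Rank 1, in the ribosomal RNA gene CT010467.1, polymerase III B box in capitals, chr17:39846776-39846925, plus strand: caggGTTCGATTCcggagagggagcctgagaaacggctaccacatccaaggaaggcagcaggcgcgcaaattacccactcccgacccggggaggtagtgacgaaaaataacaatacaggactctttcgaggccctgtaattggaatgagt
Rank 3, intergenic, no such match, chr3:5860371-5860520, plus strand: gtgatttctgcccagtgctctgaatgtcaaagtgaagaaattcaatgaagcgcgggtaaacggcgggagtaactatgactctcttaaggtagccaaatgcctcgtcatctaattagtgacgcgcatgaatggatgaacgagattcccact
Rank 4, intergenic, NR4A match, chr6:49236446-49236595, plus strand: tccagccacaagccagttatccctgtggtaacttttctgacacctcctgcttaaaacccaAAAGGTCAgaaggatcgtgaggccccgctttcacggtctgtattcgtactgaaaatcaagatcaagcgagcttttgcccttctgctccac
Rank 5, intron of Zc3h7a, KLF match, chr16:11144171-11144320, plus strand: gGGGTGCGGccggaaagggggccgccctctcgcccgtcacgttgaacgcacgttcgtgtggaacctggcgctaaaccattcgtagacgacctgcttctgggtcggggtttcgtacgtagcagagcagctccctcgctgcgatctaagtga
All 4 consist mainly of sequence that occurs more than once in the assembly, as does rank 22 among the regions with a CTCF motif. The matches marked at ranks 1, 4 and 5 lie in such sequence, and whether a factor binds there was not tested.

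A further 5 regions show the motifs and loci on which the later results turn, and they were chosen after their values were seen. Capitals mark the match named before each sequence, on either strand.
Rank 66, at the tRNA-Tyr gene n-TYgta7, polymerase III B box, chr13:23432976-23433125, plus strand: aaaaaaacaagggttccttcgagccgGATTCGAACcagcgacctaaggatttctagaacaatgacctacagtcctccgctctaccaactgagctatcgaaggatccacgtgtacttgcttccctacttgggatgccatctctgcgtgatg
Rank 82, at the start of the antisense RNA Gm15587, cAMP response element (CRE), chr5:24383586-24383735, plus strand: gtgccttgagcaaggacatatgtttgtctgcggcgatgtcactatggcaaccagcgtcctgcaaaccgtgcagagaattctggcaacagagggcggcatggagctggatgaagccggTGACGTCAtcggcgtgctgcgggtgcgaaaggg
Rank 77, nearest to Klrb1c, CRE and GC box, chr6:128764186-128764335, plus strand: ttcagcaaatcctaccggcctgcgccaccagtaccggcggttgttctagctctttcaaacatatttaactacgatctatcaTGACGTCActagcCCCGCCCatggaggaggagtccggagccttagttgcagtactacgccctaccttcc
Rank 417, 4713 bp from Ccl5, RUNX, chr11:83535166-83535315, plus strand: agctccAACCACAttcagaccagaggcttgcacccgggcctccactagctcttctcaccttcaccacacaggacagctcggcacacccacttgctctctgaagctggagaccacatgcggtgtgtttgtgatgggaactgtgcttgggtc
Rank 676, nearest to Xcl1, T-box, RUNX and ETS in that order, chr1:164966156-164966305, plus strand: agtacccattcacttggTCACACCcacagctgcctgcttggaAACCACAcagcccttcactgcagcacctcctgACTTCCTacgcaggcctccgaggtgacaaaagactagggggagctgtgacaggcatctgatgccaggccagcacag

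The members were chosen by their signal, so its values are a description. The deposited signal of the members had a minimum of 3.03, a median of 4.09 and a maximum of 90.0 in replicate 1. It had a minimum of 3.00, a median of 8.45 and a maximum of 97.9 in replicate 2, and a minimum of 3.52, a median of 9.48 and a maximum of 92.5 in replicate 3. The other shared distal regions had medians of 0.885, 1.71 and 1.88 in replicates 1, 2 and 3. The lowest percentile of a member came from replicate 1 in 931 of 1000 cases, and 993 of the 1000 strongest shared distal regions of replicate 1 alone were members, against 733 and 741 for replicates 2 and 3. Replicate 1 had 40484 peaks, against 84564 and 81854 in replicates 2 and 3, so that this list is in effect ordered by the library with the fewest peaks. Spearman's rho of the signal across the members, which share their libraries, was 0.70 between replicates 1 and 2, 0.70 between 1 and 3 and 0.84 between 2 and 3. At the threshold the lowest percentile was 81.6 on both sides. The regions just inside, nearest to Traf2 and Ifnl3, had replicate 1 signals of 3.03 each, and those just outside, nearest to Tmem173 and Capn13, also had 3.03.

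**Figure D1:**
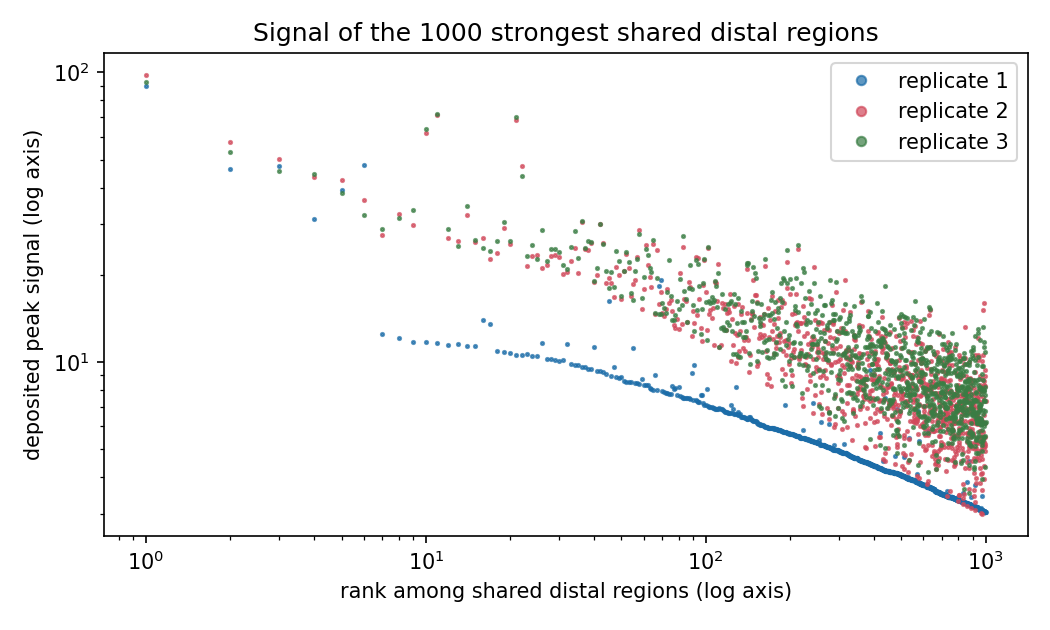
Deposited peak signal (log axis) of each of the 1000 members against its rank (log axis), 1 point per library. Replicate 1 follows the rank almost as a line because it set the lowest percentile of 931 members, and it lies close to the other libraries at the first 6 ranks, where its signal was between 31.3 and 90.0.

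The labelled cell type was set against peaks at protein-coding start sites. Of 22 natural killer receptor genes and their adaptors, 9 had a peak over a start site in all 3 libraries, among them Ncr1 (NKp46), Klrk1 (NKG2D) and Tyrobp (DAP12), and 11 of 18 cytotoxic effector genes did, Ifng and Ccl5 among them. Klra4, Klra7, Klra8, Klra9, Klrg1 and Gzma had none in any library. Peaks also lay over start sites in all 3 libraries for 8 of 16 B cell genes, among them Cd79a, Cd79b and Ms4a1 (CD20), for 3 of 15 T cell genes and for 1 of 15 myeloid genes. Pax5, Cd4, Cd8a and Csf1r had no peak in any library. For comparison, 9 of 12 housekeeping genes, 1 of 12 genes of other tissues and 37.5% of 21842 protein-coding genes had a start-site peak in all 3 libraries, so the receptor list stood near that level. The part of other cell types in the results below was not tested.

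The members fell into 5 classes, each region being placed in the first that applied. Repeated sequence, where more than 50% of the 32-letter words of the window occur at 2 or more places of the assembly, took 37 members (3.70%), against 2.00% of the other shared distal regions and 2.09% of all shared distal regions. A further 87 members (8.70%) lay within 500 bp of the start of a small RNA gene, against 0.869%. Another 213 (21.3%) lay within 500 bp of another annotated start, of a long noncoding RNA, a pseudogene, a noncoding transcript of a coding gene or a RefSeq transcript, against 8.05%. A CTCF match without any of these was found in 247 (24.7%), against 34.7%. The remaining 416 (41.6%, against 54.3%) had none of these features. Other start sites, small RNA genes and, by fewer points, repeated sequence were therefore more frequent among the members than among the others. The CTCF and remaining classes were less frequent, as shares of these 2 sets.

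Counted without regard to order, 313 members (31.3%) lay within 500 bp of a start site that the rule did not use, against 9.36% of the others and 10.6% of all shared distal regions. The share was 40% at ranks 1 to 10 and fell from the next group on. It was 54.4% at ranks 11 to 100, 42.0% at 101 to 250, 32% at 251 to 500 and 23.4% at 501 to 1000, against 15.7% at 1001 to 2000 and 7.77% below rank 12000. In the 1000 strongest shared distal regions of each library alone it was 31.3, 31.3 and 27.1% in replicates 1, 2 and 3, against 9.36, 9.36 and 9.61% of the rest. The difference averaged 20.5 ± 2.56 percentage points (SD, n = 3), positive in 3 of 3 libraries, with an exact two-sided sign-flip p = 0.25, the smallest that 3 libraries allow. These 3 lists were ranked by the signal that chose the members, and they hold mostly members. The 3 differences are therefore not independent, and the test lends the member result no support. Since annotated starts decide the share of regions near one, that share depends on how complete the annotation is. A RefSeq mRNA start lay within 500 bp of 47 members (4.70%), against 1.33% of the others, so RefSeq places coding starts there that the set used for the rule lacks.

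Long noncoding and microRNA host genes were among the highest of this class. The region at rank 12, 87 bp from the start of Snhg8, a host gene of a small nucleolar RNA, had signals of 11.4, 26.9 and 28.8 in replicates 1, 2 and 3. Rank 8, 165 bp from the RefSeq start of D130051D11Rik, had 12.1, 32.4 and 31.5. Rank 38, 38 bp from the start of Mir22hg, the host gene of miR-22, had 9.45, 24.3 and 26.3, and it also held a CTCF match. Rank 17 lay 21 bp from the annotated start of Mir132, a microRNA precursor whose expression is induced through CREB, with 13.5, 22.6 and 24.2, and its window held a CRE and a GC box. Near Malat1, an abundant nuclear noncoding RNA, ranks 116, 192 and 99 lay 39, 579 and 949 bp from the start, with signals of 6.77, 13.0 and 12.9 at rank 116. In these examples replicate 1 had the lowest signal.

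Genes read by RNA polymerase III were prominent. A tRNA gene started within 500 bp of 67 members (6.70%), against 82 of the others (0.472%), and these members stood beside 65 different tRNA genes of 403 annotated by RefSeq. They covered 20 tRNA products, with tRNA-Leu the most frequent at 9 members and tRNA-Cys and tRNA-Tyr at 1 each. The B box (GTTCGANNC, searched on both strands), through which TFIIIC recognises tRNA genes, was found in 43 members (4.30%), of which 36 lay near a tRNA gene, against 0.569% of the others. The tRNA-Tyr gene at rank 66, whose sequence is given above, had signals of 9.05, 14.7 and 14.8 in replicates 1, 2 and 3. Rank 27 lay 55 bp from the tRNA-Arg gene n-TRccg1 with 10.3, 21.6 and 22.3, and rank 7 lay 30 bp from Rn7s2, a 7S RNA gene, with 12.46, 27.5 and 28.9. With the B box in the 100 bp around the middle only, the difference between the 2 sets was 0.96 percentage points in place of 3.73.

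**Figure D2:**
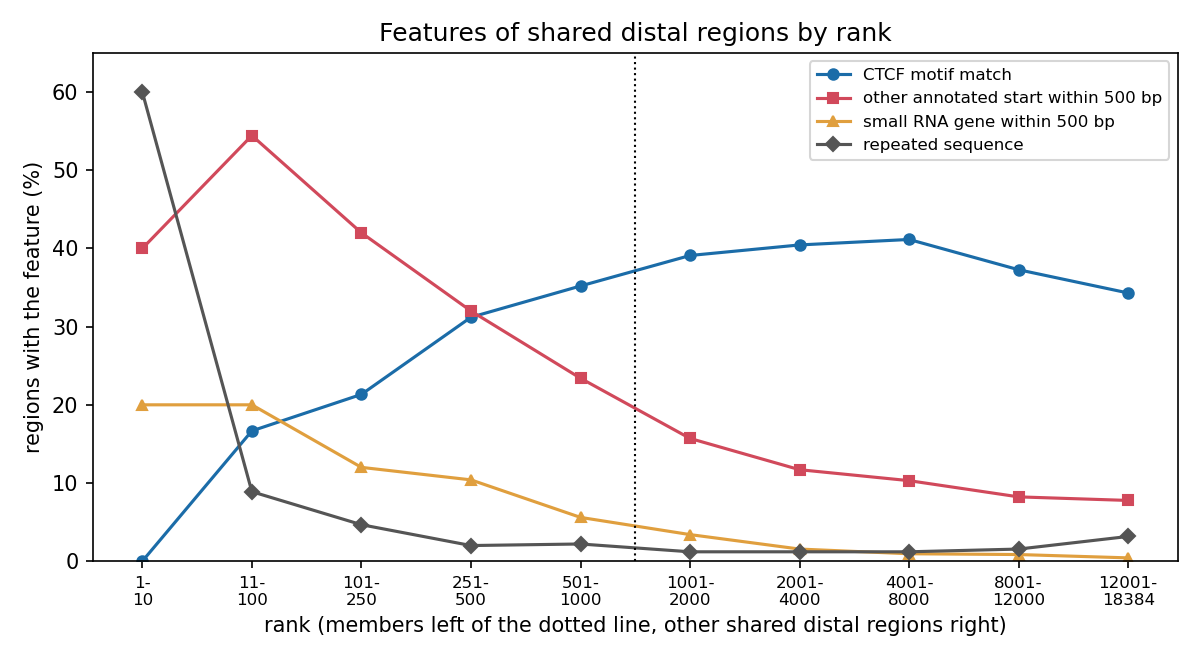
Share of shared distal regions (per cent) that hold each of 4 features, by rank group, with the 1000 members left of the dotted line and the others right of it. Other annotated starts are at 40% in the first group, 54.4% at ranks 11 to 100 and 7.77% below rank 12000, and CTCF matches run from 0 of 10 regions in the first group to 41.2% at ranks 4001 to 8000.

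Repeated sequence led the ranking, with 6 of the first 10 members and 14 of the first 100. Rank 1 had signals of 90.0, 97.9 and 92.5 in replicates 1, 2 and 3. It lies in an annotated ribosomal RNA gene, and 100% of its 32-letter words lie in the RefSeq pseudogene Rn18s-rs5, a relative of the 18S ribosomal RNA. Rank 2, in Lars2, had 46.3, 57.5 and 53.1, and rank 3, at chr3:5860361-5860530, had 47.4, 50.2 and 45.5 with a median of 7 copies per word. Ranks 4 and 5 had 31.3, 43.4 and 44.5, and 39.1, 42.4 and 38.2. Rank 6, in an exon of Cers5 and with no repeated word, had 47.8, 36.3 and 32.2. In these 6 regions replicate 1 stood closer to the other libraries than in the median member, whose log2 ratio of replicate 3 over replicate 1 was 1.16. Ranks 10, 11 and 21, all in Mid1 on the X chromosome with every word repeated, stood the other way. Rank 11 had 11.6 in replicate 1 and 71.1 and 71.7 in replicates 2 and 3. How reads that map to several places were treated is not given in the sources used here, and what part it has in these values was not tested. No window held a word of the mitochondrial genome.

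A CTCF match with at most 1 mismatch was found in 301 members (30.1%), against 6527 of the others (37.5%) and 37.1% of all shared distal regions. In windows 2000 bp to each side the same search matched 2.40% of 2000 windows beside members and 2.85% of 34768 beside the others. With 1 mismatch allowed CTCF was the most frequent of the motifs searched in both sets, and less frequent in the members by 7.45 percentage points. The other motifs were searched with no mismatch, so this order rests on unlike rules. With an exact match CTCF was in 11.2% of members, against 19.3% for the E-box motif CACCTG and 19.2% for the GC box. These motifs have 12, 6 and 7 letters, so the 3 shares are not on a like footing either. CACCTG can also lie inside a CTCF match, on its other strand. It was in 30.0% of members of the CTCF class, against 18.75% of the remaining class. Within the ranking CTCF, with 1 mismatch allowed, was found in 0 of the first 10 regions and in 16.7% at ranks 11 to 100. It was in 21.3% at 101 to 250, 31.2% at 251 to 500 and 35.2% at 501 to 1000, against 39.1% at 1001 to 2000 and 34.3% below rank 12000. In the 1000 strongest of each library alone it was 29.9, 30.4 and 22.5% in replicates 1, 2 and 3, against 37.6, 37.5 and 38.0% of the rest. The difference averaged -10.1 ± 4.68 percentage points (SD, n = 3), negative in 3 of 3 libraries (exact two-sided sign-flip p = 0.25, the smallest possible). As above, these lists hold mostly members and are not independent, so the test lends no support. When regions were merged and ranked without replicate 1 the difference was -1.66 points, and it was -2.64 points when regions within 2500 bp of any annotated start were left out first.

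Exact matches made up a similar share in both sets. Of the 301, 112 (37.2%) were exact, against 41.0% of the matches in the others, and 153 lay on the plus strand. Repeat-masked sequence held 18 of them (5.98%), against 13.1%. The median distance between the match and the middle of the strongest peak was 15 bp, against 9 bp. Rank 13, near Trpv4, was the highest with a match and had signals of 11.5, 26.2 and 25.1 in replicates 1, 2 and 3. The region in an intron of Ccnd3 (rank 23), the gene of cyclin D3, had 10.7, 21.4 and 23.3, and rank 24 had 10.5, 23.2 and 25.3.

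Footprints are called from the same cuts as the peaks, so they are described and not used as support for the ranking. Each of the 1000 members held a footprint in all 3 libraries, against 75.5% of the others and 76.8% of all shared distal regions. Taken singly, 77.7, 97.1 and 97.7% of the others held one in replicates 1, 2 and 3, so the gap lay mostly in replicate 1. A member held 5.07 ± 0.582 footprints on average (SD, n = 3 libraries), against 2.75 ± 0.894, and footprints covered 32.4 ± 6.02% of its bases, against 15.1 ± 6.24%. Footprints of 25 bp or more made up 23.1 ± 5.07% of those in members, against 11.97 ± 4.74%, and the longest in members were 80, 85 and 107 bp in replicates 1, 2 and 3. Replicate 1 had the fewest per region, with means of 4.39 in members and 1.72 in the others. With at least 50% of a footprint required inside the 200 bp window, 99.3% of members still had one in each library.

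A footprint overlapped the CTCF match in 97.3, 98.7 and 98.7% of member matches in replicates 1, 2 and 3, against 64.9, 97.1 and 96.5% of matches in the others. The 12 motif bases were covered in 96.8 ± 1.39% of member matches (SD, n = 3), and the outer 20 bases of the profile on each side in 9.59 ± 0.946%. In the others these were 80.9 ± 23.2% and 3.87 ± 1.19%. The large SD of the others came from replicate 1, with 54.1% of motif bases covered, against 95.1 and 93.5% in replicates 2 and 3. The protected stretch ran past the motif on its downstream side, and a second, partly protected stretch stood upstream of it in all 3 libraries. Among members the sets without and with a CTCF match also differed in the number of bases listed with a cut rate. The bases listed with a cut rate at a false discovery rate of at most 0.05, within 1000 bp of the middle, had medians of 510, 692 and 670 in members with a match, against 798, 1069 and 1092 in members without. The medians over all members were 722, 959 and 974.5, against 278, 456.5 and 460 in the others. These bases need not adjoin, so their number is not a width. The median width of the merged region was 240 bp in members, against 229 bp. The signal that chose the members comes from the same libraries, so these numbers are a description.

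**Figure D3:**
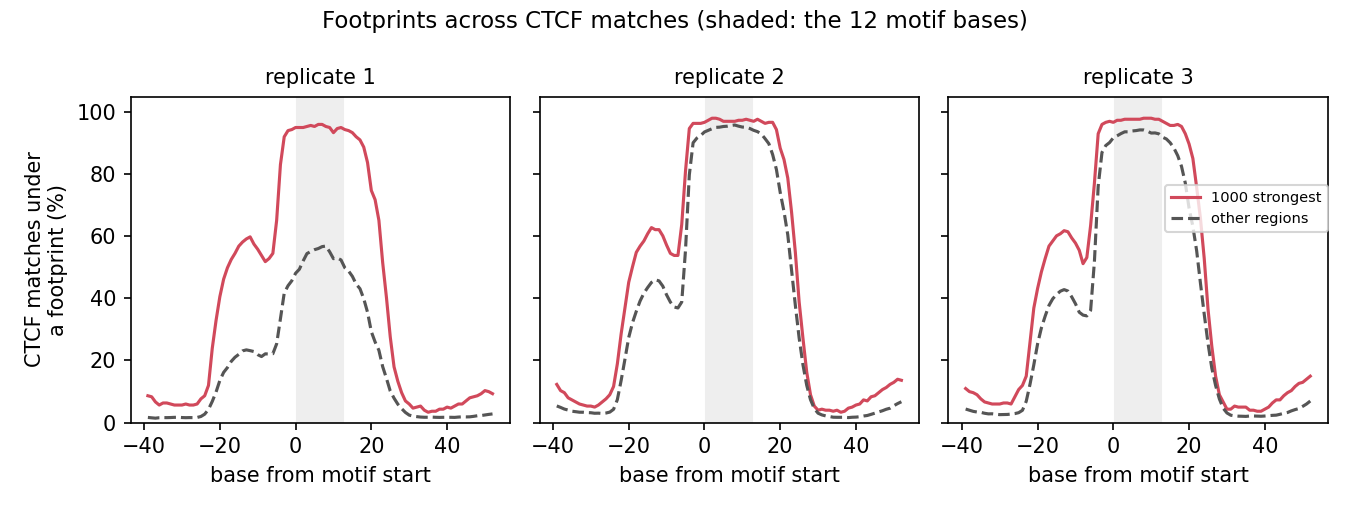
Percentage of CTCF matches whose base is under a footprint, by position from the first motif base in the direction of the motif, for members (solid) and other shared distal regions (dashed) in each library. Coverage is near 97% over the 12 motif bases (shaded) in members in all 3 libraries, and 54.1% in the others in replicate 1.

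The members were richer in G, C and CpG than the others. The median GC content of the 200 bp window was 57.5%, against 51.5%, and the median ratio of observed to expected CpG was 0.50, against 0.27. A CpG ratio of at least 0.6 with at least 50% GC, as in CpG islands, was found in 368 members (36.8%), against 6.85% of the others. Members near other start sites had the highest GC, 61.5% (median), and members with a CTCF match 55.5%. The 416 members with none of the features above also exceeded their counterparts, with 57.5% against 51.5%.

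The motif that differed most, the GC box, was GC-rich, and the differences are not adjusted for the base composition given above. Of 34 further motifs, searched as fixed letters on both strands, 8 differed by over 2 percentage points between the sets, 6 higher and 2 lower in the members, and no motif named here contains another. The GC box (GGGCGGG), the element of SP and KLF factors, was found in 192 members (19.2%), against 5.74% of the others. That difference of 13.5 points was 7.68 when regions near any annotated start were left out first and 21.3 in the top 500. The KLF motif (CCNCACCC) was in 14%, against 10.04%. The CRE (TGACGTCA), bound by CREB and ATF factors, was found in 39 members (3.90%), against 0.621%. The E2F motif (TTCCCGC) was in 4.2%, against 1.16%, and the ETS motif in its CpG form (CGGAAGT) in 5.20%, against 2.24%. The polymerase III B box, given above, was the sixth. The IRF motif (GAAANNGAA) was in 3.70%, against 6.56%, and the RUNX motif (TGTGGTT) in 9.0%, against 11.2%. For RUNX the difference of -2.24 points was 0.49 when only regions more than 10 kb from a protein-coding start were ranked. A search of all 6-letter words had CCGCCC in 32% of members, against 10.7% of the others, at the top, and AAGAAA in 8.90%, against 18.5%, at the bottom.

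In the 416 members with no annotated start within 500 bp, no repeat and no CTCF match, the lymphoid motifs were level with or below their counterparts. RUNX was in 15.1%, against 15.4%, and AP-1 (TGANTCA), the motif of JUN and FOS dimers, in 13.7%, against 13.5%. The ETS motif of lymphoid enhancers (AGGAAGT) was in 17.1%, against 21.0%, and the T-box motif (GGTGTGA), that of T-bet and Eomes, in 6.73%, against 8.10%. The IRF motif was in 3.61%, against 7.06%. The GC box stayed higher, 18.8% against 6.31%, as did the CRE, 4.09% against 0.857%.

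**Figure D4:**
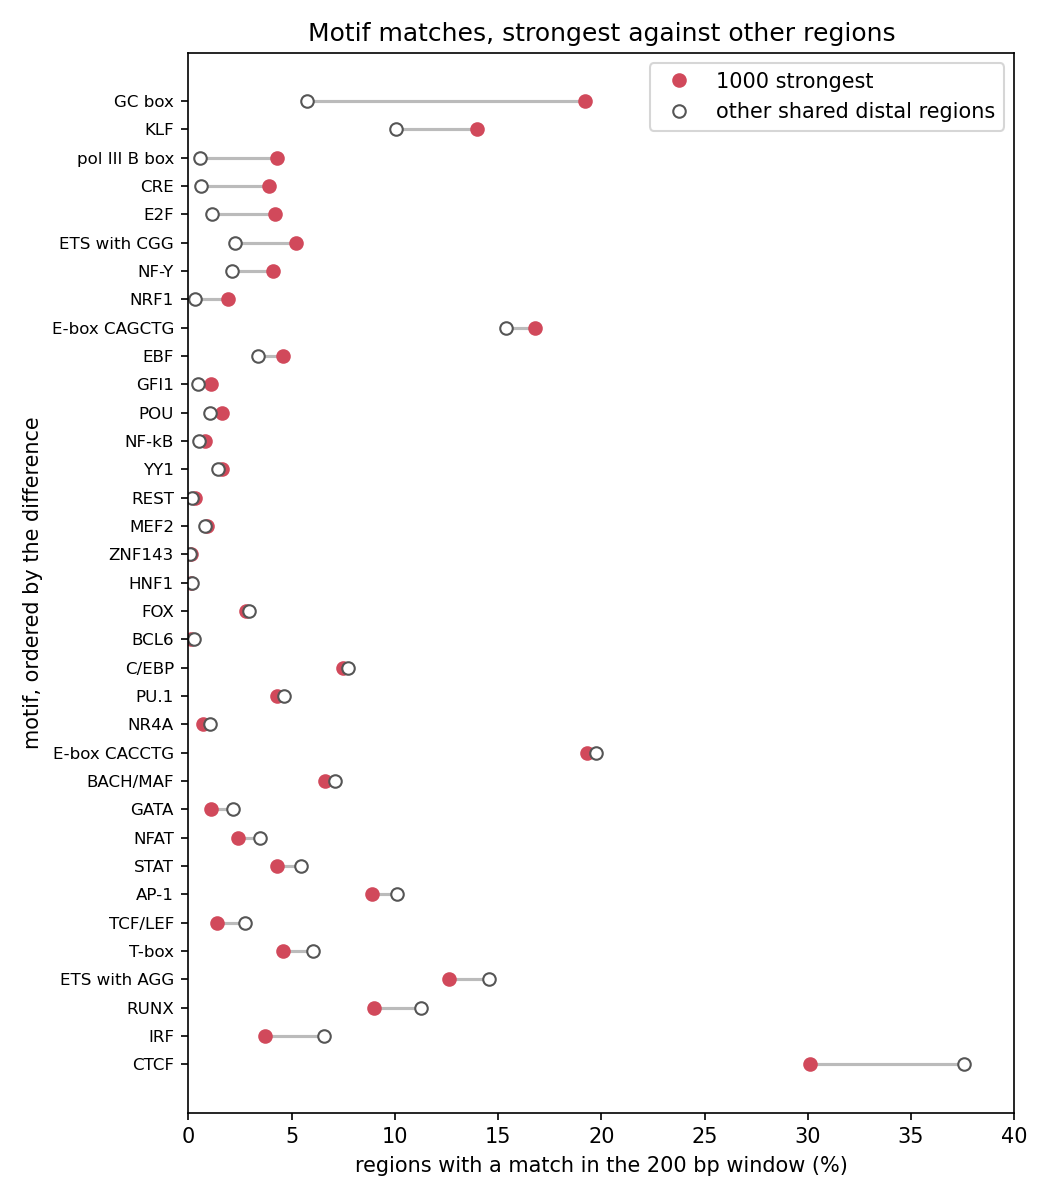
Percentage of regions with a match in the 200 bp window for CTCF (at most 1 mismatch) and 34 other motifs (exact). Members are filled and other shared distal regions open circles, ordered by the difference. The GC box is at the top (19.2 against 5.74%) and CTCF at the bottom (30.1 against 37.5%), and 26 motifs differ by 2 points or less.

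Footprints lay over these motifs to different degrees. The CRE was under a footprint in 92.3, 100 and 100% of 39 member matches in replicates 1, 2 and 3, against 40.7, 77.8 and 86.1% of 108 in the others. The GC box was covered in 84.7 ± 3.94% of member matches (SD, n = 3), against 52.5 ± 22.1%, and the B box in 95.3 ± 4.03%, against 57.9 ± 9.05%. RUNX matches were covered in 36.7, 64.4 and 67.8% of 90 member matches, against 15.6, 39.2 and 42.6%. A footprint overlapping a match by 1 bp was counted, and the members carry more footprints at any position. With at least 50% of the motif under a footprint, replicate 1 gave 82.1% for the CRE and 79.1% for the B box in members, against 22.2% for RUNX.

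The members lay closer to genes than the others within the distance that the rule allowed. The median distance to the nearest protein-coding start site was 14982.5 bp (quartiles 7078 and 34350.5), against 20370.5 bp. More than 10 kb away were 63.5%, against 72.4%, more than 50 kb 16.1%, against 22.5%, and more than 100 kb 5.30%, against 9.69%. Introns held 34.2% of members, against 48.5%, exons 13.2%, against 9.12%, and intergenic sequence 52.6%, against 42.4%. The middle lay in repeat-masked sequence in 4.4%, against 9.99%.

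The nearest protein-coding genes of the members were 819 different genes. Of these, 695 had 1 member, 93 had 2 and 31 had 3 or more. Genes with 5 members, the most for any gene, included Cebpb, Gm21887, Irf2bpl, Klrb1c, Nanos3, Ptma, Runx3 and Sfi1. All 5 of Gm21887 were repeated sequence, and those of Nanos3 included rank 345, 16 bp from the start of the lincRNA Gm26887, and rank 9, 834 bp from it, with 11.8, 29.7 and 33.4 in replicates 1, 2 and 3. The nearest gene is a position and does not say which gene a region acts on.

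The 22 listed natural killer receptor and adaptor genes were the nearest of 6 members (0.60%), against 0.150% of the others. Of these, 5 belonged to Klrb1c, the gene of the NK1.1 receptor (NKR-P1C), and 1 to Sh2d1b1, the gene of the adaptor EAT-2. Rank 77, 24225 bp from the start of Klrb1c, had signals of 8.09, 13.4 and 13.9 in replicates 1, 2 and 3, and rank 80, 13996 bp away, had 8.19, 13.0 and 15.2. Ranks 254, 376 and 516 were also nearest to Klrb1c, with 5.24, 9.50 and 9.40 at rank 254. Between 11.8 and 36.7% of the words of these 5 windows also occur elsewhere in the assembly, the Klr genes being a family of close copies. Klrb1b, the gene of the related inhibitory receptor NKR-P1B, is not on the list and was the nearest of 4 further members and 5 others. The highest of them, rank 130, had 6.72, 10.4 and 10.5, and Klrb1b is named here after its values were seen.

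Cytotoxic effector genes were the nearest of 4 members (0.400%), against 0.351%. The region 4713 bp from Ccl5 (RANTES), rank 417, held a RUNX match and had 4.31, 5.50 and 11.95 in replicates 1, 2 and 3. Rank 676, 30724 bp from the chemokine gene Xcl1, held ETS, RUNX and T-box matches and had 3.56, 4.92 and 10.2. Fasl, the gene of Fas ligand, was nearest to ranks 629 and 927, with 3.69, 14.6 and 15.5 at rank 629. Of the 13 cytotoxic genes with any shared distal region, only these 3 had one among the members.

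Transcription factors of natural killer cells were the nearest of 17 members (1.70%), against 1.22%, and 9 of the 24 genes had a member. Rank 171, 48292 bp from Irf8, had 5.92, 8.30 and 16.3 in replicates 1, 2 and 3, and it lay 56 bp from the RefSeq start of Gm33199. Rank 187, 53875 bp from Runx3, had 5.77, 16.4 and 16.1, and the other 4 members of Runx3 lay 16795 to 53711 bp away. Ranks 687 and 776 had replicate 3 signals of 10.2 each, against 5.97 and 4.94 in replicate 2. Bach2 was nearest to rank 274, in its intron and with a CTCF match, with 5.10, 11.6 and 10.1.

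Cytokine receptor and signalling genes were the nearest of 5 members (0.50%), against 0.362%. The highest was rank 70, 5605 bp from Socs3, the feedback inhibitor of cytokine signalling, with 7.95, 14.7 and 16.01 in replicates 1, 2 and 3. Immediate early genes were the nearest of 13 members (1.30%), against 0.259%, at 8 of 12 genes. Fos was nearest to ranks 51 and 182, with 8.64, 20.6 and 20.7 at rank 51, Fosb to rank 103 with 6.996, 14.7 and 16.3, and Nr4a1 to rank 147 with 6.30, 14.8 and 15.03. T cell genes were the nearest of 3 members (Bcl11b and Tcf7, which lymphoid lineages share; 0.30%, against 0.132%) and B cell genes of 1 (Cr2; 0.10%, against 0.0978%). Myeloid genes were the nearest of 2 (Spi1 and Adgre1; 0.20%, against 0.0460%), housekeeping genes of 2 (0.20%, against 0.0978%) and trafficking genes of 2 (Cd69 and Cxcr4; 0.20%, against 0.305%). Genes of other tissues were the nearest of 0, against 0.0345%. Bcl11b is on both the transcription factor and the T cell list, so its member at rank 431 is counted in both. The lists hold few members, and no difference between lists was tested.

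The libraries did not rank all classes alike. Across all members the median log2 ratio of signal in replicate 3 over replicate 2 was 0.08. Of the members, 67.5% were higher in replicate 3, against 57.9% of the others. The median was 0.00 for repeated sequence, -0.01 at small RNA genes, 0.06 at other start sites and 0.03 at CTCF matches. In the remaining class it was 0.22. There 342 of 416 members (82.2%) were higher in replicate 3, against 71.2% of the others. Within that class the median was 0.59 for the 63 members with a RUNX match, against 0.17 for the 353 without. Of the 63, 60 were higher in replicate 3, against 83.8% of the others with a RUNX match. The median was 0.63 for the 28 with a T-box match, against 0.20 for those without. It was 0.42 for the 57 with an AP-1 match, against 0.17. With a GC box it was 0.09, against 0.28 without.

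In the other shared distal regions the remaining class also had the highest median, 0.33, and CTCF matches had the lowest, -0.08. The motif splits of the remaining class ran the same way there, so they are not particular to the members. With and without a match the medians were 0.59 and 0.28 for RUNX, 0.70 and 0.30 for T-box, 0.69 and 0.28 for AP-1, and 0.20 and 0.35 for the GC box. Members nearest to genes of the receptor, cytotoxic and transcription factor lists together had a median of 0.29 (22 of 27 higher in replicate 3). The others nearest to the same genes had 0.61 (85.3% higher). For the B cell list the 1 member stood at -0.17 and the 17 others had a median of -0.43, and for the T cell list the 3 members had 0.91 and the 23 others 0.14. Regions nearest to Bcl11b enter both the transcription factor and the T cell values. These libraries are replicates of 1 group and the deposited signal has no stated scale between libraries, so the values serve only to set classes beside each other. In material of this kind a change in the mix of cells and a change within cells cannot be told apart.

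**Figure D5:**
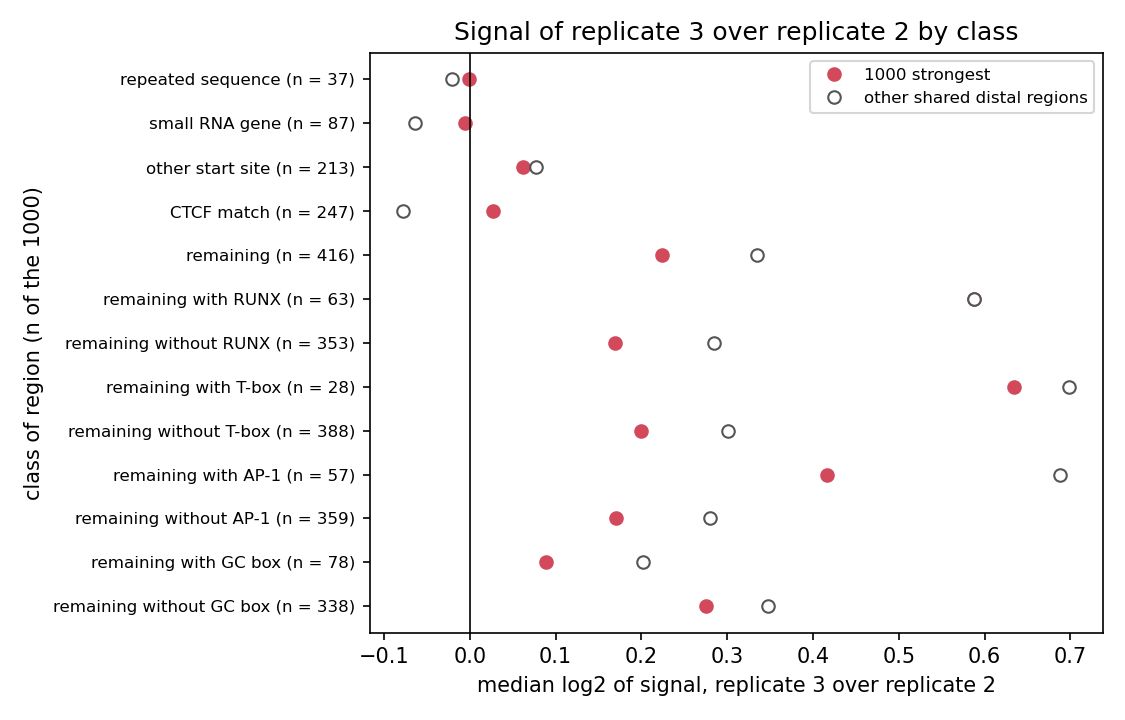
Median log2 ratio of signal in replicate 3 over replicate 2 for classes of members (filled) and other shared distal regions (open), with the remaining class split by motif. Members with a RUNX match (0.59) or T-box match (0.63) lie right of those without (0.17 and 0.20), and CTCF, small RNA and repeated regions lie near 0. The other regions split the same way, at 0.59 and 0.70 with a match and 0.28 and 0.30 without.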

How the data were processed

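DNase-seq was deposited as lists per library in mm10 coordinates, per the file headers and labels. The authors deposited 2 peak lists, footprints and a cut-rate list per library. The authors computed the signal of each peak (column 7) before they deposited it, on a scale that no header or label states, and it was used as percentiles within a library. The q-value of the cut rate, deposited by the authors, reaches 0.05, and the deposited footprint score is the constant 0.01 and was not used. The aligner, peak caller and footprint caller were not given in the sources used here, and depth is unknown.

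The larger peak lists were merged in Python 3.11.15 with numpy 2.4.6 and checked with bedtools 2.31.1 on simulated peaks. Start sites came from protein-coding transcripts of GENCODE vM21, and tRNA genes and sequences from RefSeq (GRCm38). Motifs were searched in 200 bp around the middle of the strongest peak of a region. Members, motifs, gene lists and tests were chosen with earlier results of these data known, and the classes, the replicate ratios and the sequences of tRNA, CRE and lymphoid regions after the values were seen. Named regions are the 10 highest, the 5 highest with and without a CTCF match, those at the threshold, up to 4 per gene list and those of the genes with most members, of which 1 is not reported here. The exact sign-flip test used scipy 1.17.1. Alternatives were other peak lists, distances, start sites, ranks, numbers, overlaps, motif rules and leaving out each library.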

Additional observations from a re-analysis of the deposited data

How the results depend on the processing

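Of the 1000 members, 99.8% were kept with the stricter peak lists, 98.5% where peaks had to share 50% of the shorter, 89.0% when ranked by the mean percentile, 82.5% at over 1000 bp from a protein-coding start, 63.5% at over 10 kb, where the rule itself removes the rest, 68.8% at over 2500 bp from any annotated start and 50%, by construction, in the top 500. Leaving out 1 library kept 74.9 to 99.6%, the lowest without replicate 1, and leaving out repeated sequence, an alternative chosen after seeing the data, 96.3%. The CTCF share was 35.1% away from any annotated start, 25% in the top 500, 34.6% in the top 2000, 11.2% with an exact match, 51.1% with 2 mismatches and 26.0% in a 100 bp window, with 29.5 to 30.2% without 1 library. The CTCF difference stayed negative in all 17 alternatives, at -2.64 points away from any annotated start, -12.5 in the top 500 and -7.18 to -1.66 without 1 library, the last without replicate 1. Members with a footprint in all libraries were 99.6% both at over 10 kb and away from any annotated start, 99.35% in the top 2000 and 99.3% with at least 50% of the footprint in the window. CTCF matches under a footprint were 96.9% at over 1000 bp, 99.7% with an exact match, 84.5% with 2 mismatches, 99.6% with a weight matrix built from 1803 sites and 96.9% with at least 50% of the motif covered. The median distance was 10340 bp at over 1000 bp, 24914 bp at over 10 kb and 14362 bp by mean percentile, with 14470.5 to 15076.5 bp without 1 library. Introns held 38.0% away from any annotated start, 30.4% in the top 500 and 38.35% in the top 2000, and 6.20% of middles were repeat-masked at over 10 kb. The number of motifs that differed by over 2 points was 5 in the top 2000 and 3 in the 100 bp window, against 8. The RUNX difference turned to 0.49 at over 10 kb, and the other 7 motifs kept their direction in all 14 alternatives but not their size. The GC box difference of 13.5 points was 7.68 away from any annotated start, 8.62 in the top 2000, 8.81 in the 100 bp window and 21.3 in the top 500, and in the 100 bp window KLF was 1.08, IRF -0.72 and the B box 0.96. The cause of these changes was not tested, apart from the distances and kept shares that a rule sets itself. No paired analysis was possible because there is 1 group. Unknown depth, the short motif words and 3 libraries limit the precision.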
